A study of Mus musculus with 16 samples.

Results

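The Jumonji histone demethylases were described here through 10 genes, Kdm2a, Kdm2b, Kdm3a, Kdm3b, Kdm4a, Kdm4b, Kdm4c, Kdm5b, Kdm6b and Jmjd6, found by symbol among the 24421 genes counted in each of 16 RNA sequencing libraries. All 10 were listed in every library and passed the filter on low counts, with 409 to 15833 counts per gene and library. In mm10 coordinates (GENCODE vM21), the genes are Kdm2a at chr19:4314419-4398285, Kdm2b at chr5:122870665-122989823, Kdm3a at chr6:71588972-71632990, Kdm3b at chr18:34777047-34838660, Kdm4a at chr4:118136957-118180043. The others are Kdm4b at chr17:56326062-56402870, Kdm4c at chr4:74242497-74405860, Kdm5b at chr1:134560171-134635285, Kdm6b at chr11:69398508-69413675 and Jmjd6 at chr11:116837432-116843449. The libraries came from heads of third-generation (F3) mouse embryos at embryonic day 8.5, taken between the first brachial (branchial) arch and a level just above the otic vesicle. There were 4 groups of 4 libraries: wild type (WT) embryos and embryos homozygous for a null allele of Ift88, each from mice kept for 3 generations on a moderate diet of 2 ppm folic acid or an enriched diet of 10 ppm. Ift88 encodes a carrier of cargo inside cilia, and the question was how added folic acid bears on cilia. The sources used here do not give the exons removed by the allele, the strain or the litters. The p-values treat the libraries as independent and could be too small if embryos of a group shared a litter. They reflect how these libraries spread, which may be technical in part.

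Jumonji demethylases share the JmjC fold, which holds an iron ion and uses molecular oxygen and 2-oxoglutarate to hydroxylate a methyl group, which then leaves the histone as formaldehyde. The oxygen demand ties these enzymes to oxygen supply, and several of their genes, Kdm3a and Kdm4b among the best known, are textbook targets of the hypoxia-inducible factors. Members differ in the histone lysine they serve. Kdm3a and Kdm3b remove methyl groups from lysine 9 of histone H3, a mark of silent chromatin, and Kdm4a, Kdm4b and Kdm4c act there and on lysine 36. Kdm2a and Kdm2b act on lysine 36, Kdm5b on lysine 4 at promoters, and Kdm6b on lysine 27, where it opposes Polycomb silencing. Jmjd6 is best established as a lysyl hydroxylase of splicing proteins, and its activity as a demethylase is debated.

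Library totals ran from 19249433 to 44267434 counts assigned to genes. Ift88, the check of the labels, lay at 2.01 to 8.61 CPM (read counts normalised to library size, with sizes scaled by trimmed means of M values) in mutants and 9.30 to 20.9 CPM in WT libraries, so no mutant reached a WT library. The lowest WT value belonged to moderate diet WT replicate 2, which is also 1 of 3 libraries, with moderate diet mutant replicates 1 and 2, whose Xist and Y-linked counts contradicted the labelled sex. Moderate diet mutant replicate 3 stood apart from the other mutants on the first principal component, at 3.66 where the other 7 mutants lay between -23.7 and -14.7 and the WT libraries between 12.6 and 19.3. Ift88 in that replicate, at 2.01 CPM, was the lowest of the 16 libraries. Of the markers of head tissue, all 8 neural and all 7 mesenchyme and neural crest genes were detected in every group, and in each list none passed the genotype test on the moderate diet and 1 rose on the enriched diet. Because whole tissue was sequenced, more cells that make a transcript and more transcript per cell cannot be told apart.

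In moderate diet WT heads the members spanned a wide range of levels when compared per kilobase of exon (CPM per kb, mean ± SD, n = 4). Kdm4a stood highest at 25.6 ± 0.334, above the range of the next gene, Kdm6b, at 18.9 ± 1.66. Kdm5b followed at 17.0 ± 0.412, Jmjd6 at 16.3 ± 1.07, Kdm3a at 14.8 ± 0.288 and Kdm4b at 13.9 ± 0.594. The ranges of Kdm6b and Kdm5b, of Kdm5b and Jmjd6, and of Kdm3a and Kdm4b overlapped, so their order was not resolved. Lower were Kdm3b at 12.5 ± 0.333, Kdm2a at 11.2 ± 0.607 and Kdm2b at 10.8 ± 0.353, the last pair overlapping, and Kdm4c lay far below at 3.38 ± 0.149. In mutants Kdm3a had the highest mean of the members, at 26.2 ± 5.76 CPM per kb on the moderate diet and 32.4 ± 5.18 on the enriched diet, although its range overlapped that of Kdm4a on the moderate diet and that of Kdm6b on the enriched diet.

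Several members had higher transcript levels in Ift88 mutants than in WT heads, whichever diet was fed. On the moderate diet 5 of the 10 members rose and none fell: Kdm3a, Kdm4c, Kdm4b, Jmjd6 and Kdm5b (quasi-likelihood test of edgeR, p adjusted by Benjamini-Hochberg over 14514 genes, threshold 0.05). Among all genes tested, 7.62% were called in this comparison, 4.79% higher and 2.83% lower. On the enriched diet these 5 rose again together with Kdm6b, Kdm2b and Kdm2a, 8 of 10 with none down, where 31.2% of all genes were called, 14.4% higher and 16.8% lower. Averaged over the diets the count was also 8 of 10, against 35.8% of genes called, 17.4% higher and 18.5% lower. The members' median log2 fold change was 0.29 on the moderate diet and 0.38 on the enriched diet, beside medians of -0.01 and -0.01 over all genes. The members were chosen with earlier results of these data known, so these shares and medians are not a test of the group. Counting libraries alone, all 4 mutants lay above all 4 WT libraries in 5 members on the moderate diet, which held for 8.5% of all genes, and in 6 on the enriched diet, which held for 11.2%. The moderate diet calls rest on few libraries. Without the 3 libraries of contradicted sex none of the 10 members passed on that diet (0.726% of genes called), although Kdm3a kept a log2 fold change of 0.82 (adjusted p = 0.107) and Kdm4c of 0.59 (adjusted p = 0.201). Kdm4b and Kdm5b lost that call without moderate diet mutant replicate 1, 2 or 4 or WT replicate 1, 2 or 3, and Kdm5b also without WT replicate 4.

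**Figure D1:**
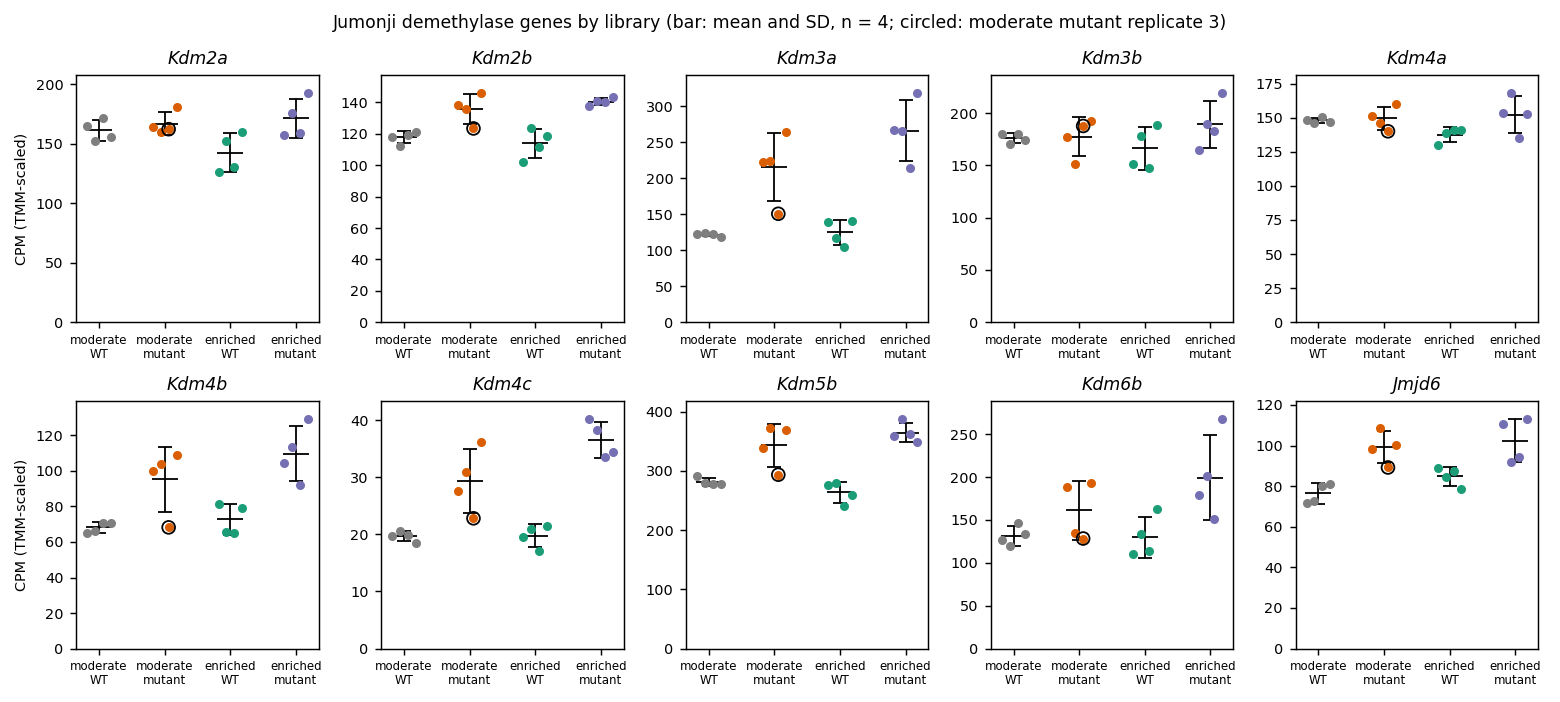
CPM of the 10 members in each of the 16 libraries (points) by group, with the mean and SD of 4 libraries as black bars. The circled library, moderate diet mutant replicate 3, lies at 151 CPM of Kdm3a, between the WT libraries and the other moderate diet mutants.

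Kdm3a, the lysine 9 demethylase known as a target of hypoxia-inducible factors, had the largest fold change of the 10 members on both diets. Moderate diet WT replicates 1 to 4 held 123, 124, 123 and 118 CPM, and moderate diet mutants held 223, 225, 151 and 264 CPM. Enriched diet WT replicates 1 to 4 held 139, 117, 104 and 140.1 CPM, and enriched diet mutants held 267, 265, 214 and 319 CPM. Every mutant library was above every WT library, across diets too, a separation found in 4 members (Kdm3a, Kdm4c, Kdm5b and Jmjd6) and in 2.51% of all genes tested. The log2 fold change was 0.82 ± 0.14 (SE) on the moderate diet (edgeR adjusted p = 0.00207) and for the enriched diet 1.12 ± 0.14 (adjusted p = 0.000139), or 1.77-fold and 2.18-fold. Without moderate diet mutant replicate 3 the first value was 0.96 ± 0.12 (adjusted p = 7.36e-05).

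Kdm3b, its closest relative among the members, gave log2 fold changes of 0.01 ± 0.10 (adjusted p = 0.973) and 0.20 ± 0.10 (adjusted p = 0.145), with 95% intervals of -0.20 to 0.22 and -0.02 to 0.41. It is the larger of the pair in raw reads in WT heads, at 171 to 180.3 CPM on the moderate diet. The ratio of Kdm3a to Kdm3b counts within a library, which no scaling between libraries can alter, was tested directly. Its log2 value went from -0.53 ± 0.05 (SD, n = 4) in WT to 0.26 ± 0.40 in mutants on the moderate diet, and from -0.41 ± 0.21 to 0.49 ± 0.19 on the enriched diet. In both cases the 4 mutant ratios lay above the 4 WT ratios (exact permutation test, two-sided, p = 0.0286, the smallest value 4 against 4 allows, and 0.0381 after Benjamini-Hochberg adjustment over 8 such tests). The pairs were chosen after the data were seen, so these p-values are not independent support, and the adjustment does not cover that choice. Moderate diet mutant replicate 3 was the lowest mutant of that diet in the Kdm3a to Kdm3b ratio, at -0.32.

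Kdm4c and Kdm4b, demethylases of lysine 9 and lysine 36, followed Kdm3a in size on the moderate diet, and on the enriched diet the estimate for Kdm6b lay between theirs. Kdm4c lay at 19.7, 20.6, 19.9 and 18.5 CPM in moderate diet WT replicates 1 to 4 and at 27.6, 30.9, 22.8 and 36.1 CPM in the mutants of that diet. On the enriched diet it lay at 19.6, 20.9, 17.1 and 21.5 CPM in WT and at 40.2, 38.3, 33.5 and 34.4 CPM in mutants. Its groups did not overlap on either diet, and the mutants' lowest value was again moderate diet replicate 3. The log2 fold changes were 0.57 ± 0.12 (adjusted p = 0.00816) and 0.88 ± 0.12 (adjusted p = 0.000215). In moderate diet WT libraries Kdm4b held 65.3, 66.2, 70.9 and 70.6 CPM, and in mutants 100.1, 104, 68.2 and 109 CPM, so that replicate 3 fell inside the WT range while the other 3 mutants were clear of it. The enriched diet gave 81.4, 65.4, 65.0 and 79.4 CPM in WT and 105, 114, 91.8 and 129 CPM in mutants, without overlap. Kdm4b rose by 0.48 ± 0.12 (adjusted p = 0.0226) and 0.64 ± 0.12 (adjusted p = 0.00163) on the log2 scale.

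Kdm4a, the third enzyme of this subfamily and the most abundant member per kilobase in WT heads, moved little. It held 146 to 151 CPM in moderate diet WT and 140.0 to 160.2 CPM in moderate diet mutants, with log2 fold changes of 0.01 ± 0.07 (adjusted p = 0.921) and 0.16 ± 0.07 (adjusted p = 0.0800) on the 2 diets. The differences from its relatives were tested as ratios of counts within a library. The log2 ratio of Kdm4c to Kdm4a was higher in mutants by 0.54 on the moderate diet and 0.75 on the enriched diet, and that of Kdm4b to Kdm4a by 0.45 on both. All 4 comparisons were free of overlap (exact permutation test, p = 0.0286, adjusted p = 0.0381 for each). These pairs too were chosen after the data were seen, so the p-values describe the separation and are not independent support.

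**Figure D2:**
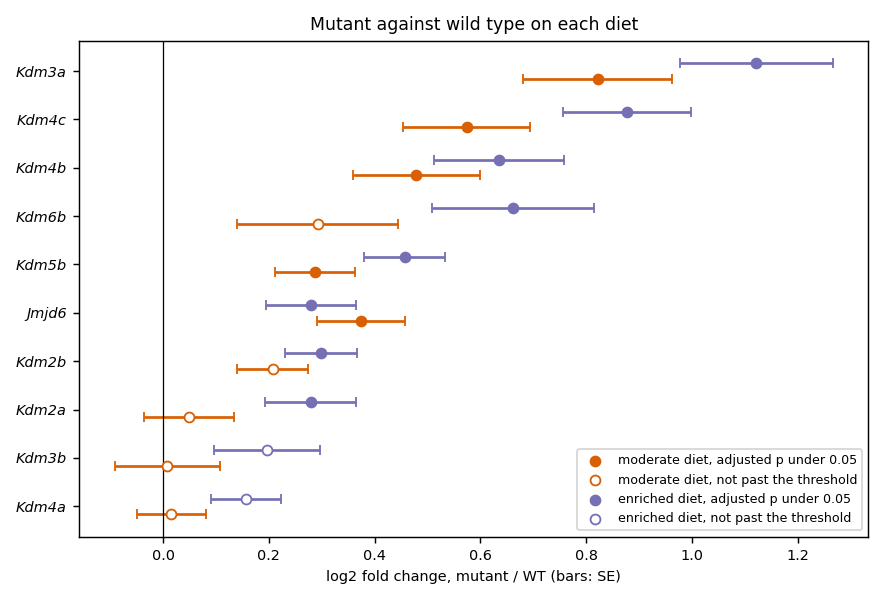
Log2 fold change of each member between Ift88 mutants and WT on the moderate and enriched diets, with bars of 1 SE and filled points for an edgeR adjusted p under 0.05. Kdm3a lies furthest to the right on both diets, and Kdm3b and Kdm4a are open on both.

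Kdm5b, which removes methyl groups from lysine 4, was the member with the most reads per library and rose by a smaller step. Moderate diet WT replicates 1 to 4 held 291, 279, 277 and 278 CPM, and mutants 338, 372, 293 and 369 CPM. On the enriched diet the WT libraries held 276, 279, 241 and 259.8 CPM and the mutants 359, 387, 361 and 349 CPM. The groups stayed apart on both diets, and on the moderate diet mutant replicate 3 was the mutant nearest to WT. The log2 fold changes were 0.29 ± 0.08 (adjusted p = 0.0291) and 0.46 ± 0.08 (adjusted p = 0.000720).

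Kdm6b, the lysine 27 demethylase, varied widely between libraries of a group, with coefficients of variation of 8.77 to 25.0%, above those of the other 9 members in every group but the moderate diet mutants. On the moderate diet it held 126, 119.6, 147 and 133 CPM in WT and 189, 135, 128 and 193 CPM in mutants, where replicates 2 and 3 lay inside the WT range. On the enriched diet it held 110.0, 133, 114 and 163 CPM in WT and 179, 201, 151 and 268 CPM in mutants, of which replicate 3 was below the highest WT library. The log2 fold change was 0.29 ± 0.15 on the moderate diet (adjusted p = 0.261) and for the enriched diet 0.66 ± 0.15 (adjusted p = 0.00498). The difference between these values did not pass (0.37, adjusted p = 0.524), so a change particular to the enriched diet was not shown.

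Kdm2b, which carries Polycomb complexes to CpG islands, held 112 to 121 CPM in moderate diet WT and 123 to 146 CPM in mutants, and 102 to 124 CPM against 138 to 144 CPM on the enriched diet, with no overlap on either. Its log2 fold changes were 0.21 ± 0.07 (adjusted p = 0.0720) and 0.30 ± 0.07 (adjusted p = 0.00448). The moderate diet value passed in 3 of 25 alternative fits. These were DESeq2, edgeR without enriched diet WT replicate 1, and edgeR without moderate diet mutant replicate 3 (0.26, adjusted p = 0.0157). Without the libraries of contradicted sex it was 0.16 (edgeR adjusted p = 0.662). Kdm2a, its relative, overlapped between genotypes on both diets, at 0.05 ± 0.09 (adjusted p = 0.782) and 0.28 ± 0.09 (adjusted p = 0.0228). The log2 ratio of Kdm2b to Kdm2a differed by 0.16 on the moderate diet and 0.04 on the enriched diet (exact permutation test, p = 0.0571 and p = 0.600, adjusted p = 0.0653 and adjusted p = 0.600), so for this pair a shift was not shown.

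Jmjd6 held 71.5, 72.8, 80.2 and 81.2 CPM in moderate diet WT replicates 1 to 4 and 98.3, 109, 89.2 and 100.5 CPM in the mutants. On the enriched diet the values were 88.9, 84.4, 87.5 and 78.4 CPM in WT and 111, 92.0, 94.4 and 113 CPM in mutants. The groups did not overlap on either diet. Its log2 fold changes were 0.37 ± 0.08 (adjusted p = 0.0114) and 0.28 ± 0.08 (adjusted p = 0.0204), which made it the member with a lower estimate on the enriched than on the moderate diet, although that difference of -0.09 did not pass (adjusted p = 0.732).

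The library kit does not mark strand, and some members share exonic bases with other annotated genes. The lincRNA Gm26538 covers 24.6% of the exonic length of Kdm3b, Rnf34 covers 5.77% of that of Kdm2b, Mettl23 covers 3.66% of that of Jmjd6, and the antisense RNA Kdm6bos covers 4.11% of that of Kdm6b. Reads on these stretches cannot be told apart from those of the other gene. No such overlap was annotated for Kdm3a, Kdm4a, Kdm4b, Kdm4c, Kdm5b or Kdm2a.

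RefSeq promoter sequences (GRCm38.p6, the build called mm10 in the files) were at hand for 6 of the 10 members, and none was matched for Kdm2a, Kdm3b, Kdm4b and Kdm6b. The 250 bases before the start site nearest to the annotated 5′ end are shown for 4 members that rose on both diets and for Kdm4a, which passed on neither, because hypoxia-inducible factors bind a short core read as ACGTG or GCGTG. Both cores were searched on both strands, and CACGTG counts as a match on each strand. Of 32817 such windows over all genes, 16.6% held ACGTG, 28.1% held GCGTG and 38.6% held either. Capitals mark the matches, and each sequence runs 5′ to 3′ toward the start site.
Kdm3a, chr6:71632918-71633167, minus strand: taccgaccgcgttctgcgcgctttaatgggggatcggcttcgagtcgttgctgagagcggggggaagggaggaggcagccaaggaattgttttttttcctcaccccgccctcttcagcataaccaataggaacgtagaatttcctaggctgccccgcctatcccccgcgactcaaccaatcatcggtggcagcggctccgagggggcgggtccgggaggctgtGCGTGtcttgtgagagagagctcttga
Kdm4c, chr4:74242247-74242496, plus strand: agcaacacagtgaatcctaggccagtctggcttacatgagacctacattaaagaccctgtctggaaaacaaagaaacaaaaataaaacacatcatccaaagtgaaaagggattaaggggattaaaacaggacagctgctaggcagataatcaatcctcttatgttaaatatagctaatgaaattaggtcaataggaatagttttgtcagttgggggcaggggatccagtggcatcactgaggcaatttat
Kdm4c at its other listed start, chr4:74251629-74251878, plus strand: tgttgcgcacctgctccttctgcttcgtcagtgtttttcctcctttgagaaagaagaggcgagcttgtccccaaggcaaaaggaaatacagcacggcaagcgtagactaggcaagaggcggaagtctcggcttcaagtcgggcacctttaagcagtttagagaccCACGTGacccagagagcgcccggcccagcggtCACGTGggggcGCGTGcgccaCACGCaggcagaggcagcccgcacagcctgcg
Kdm5b, chr1:134559928-134560177, plus strand: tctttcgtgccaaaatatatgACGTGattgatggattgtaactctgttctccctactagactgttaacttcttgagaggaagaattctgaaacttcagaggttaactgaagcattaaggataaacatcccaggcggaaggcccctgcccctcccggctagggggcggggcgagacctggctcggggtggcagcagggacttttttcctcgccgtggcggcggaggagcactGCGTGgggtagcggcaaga
Jmjd6, chr11:116843450-116843699, minus strand: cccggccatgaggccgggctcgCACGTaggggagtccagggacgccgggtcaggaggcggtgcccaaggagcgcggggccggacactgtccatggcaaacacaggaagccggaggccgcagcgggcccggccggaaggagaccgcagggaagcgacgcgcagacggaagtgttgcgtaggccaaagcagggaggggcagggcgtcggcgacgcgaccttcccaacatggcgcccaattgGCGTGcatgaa
Kdm4a, chr4:118180044-118180293, minus strand: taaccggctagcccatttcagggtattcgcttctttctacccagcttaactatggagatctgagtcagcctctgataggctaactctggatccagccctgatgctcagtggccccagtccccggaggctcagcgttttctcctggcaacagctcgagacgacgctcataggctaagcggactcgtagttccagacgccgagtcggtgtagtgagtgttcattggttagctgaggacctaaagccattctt
The Kdm3a window held 1 GCGTG from 27 to 23 bases before the start, and the windows before its 2 other listed starts held none. Kdm5b and Jmjd6 held 2 matches each, the nearer a GCGTG at 19 to 15 and at 11 to 7 bases before the start. Kdm4c had no match before its upstream start but 6 matches in 4 separate stretches before the other, and Kdm4a had none in its window. Kdm2b, which passed on the enriched diet alone and whose window is not shown, held 1 GCGTG from 230 to 226 bases before the start. The windows before its other listed starts held matches too. A match is a run of letters and not a site of binding, and with either core in 38.6% of all windows these counts do not set the members apart.

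The members were set beside 15 genes of the response to low oxygen, none of them a member. All 15 rose on both diets (median log2 fold changes of 1.88 and 1.78), a rise that earlier results of these data had already shown. Adm, the peptide adrenomedullin, rose by 5.37 on both diets, the collagen hydroxylase P4ha2 by 1.95 and 1.57, and Ddit4, an inhibitor of growth signalling, by 3.20 and 3.09. The mean of these genes in a library (log2 CPM centred on the 16 libraries) was -1.22 to -0.55 in WT libraries and 0.87 to 1.34 in 7 mutants, with moderate diet mutant replicate 3 between them at -0.27. In that library Kdm3a stood at -0.18, between WT (-0.71 to -0.28) and the other mutants (0.33 to 0.90), and Kdm4c at -0.15, above WT (-0.57 to -0.24) and below the other mutants (0.12 to 0.67). Kdm4b stood at -0.30, within WT (-0.37 to -0.05). The part of the low oxygen response in the members' levels was not tested.

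**Figure D3:**
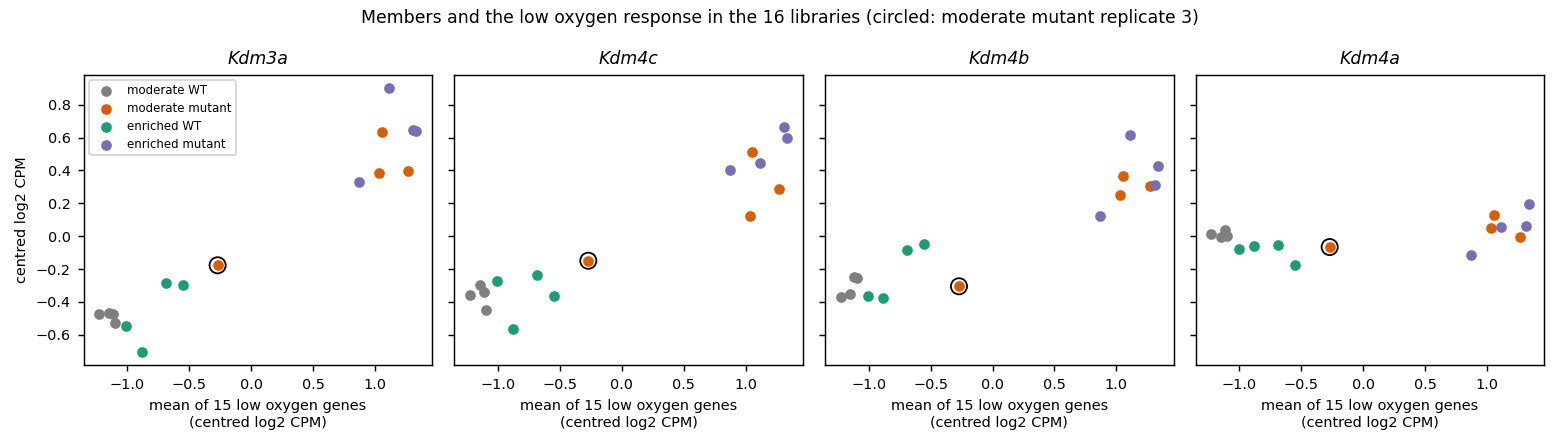
Centred log2 CPM of Kdm3a, Kdm4c, Kdm4b and Kdm4a (vertical axis) against the mean of 15 low oxygen genes (horizontal axis) in 16 libraries, coloured by group. The circled moderate diet mutant replicate 3 lies at -0.27 on the horizontal axis, between the WT libraries and the other 7 mutants, and Kdm4a spans -0.18 to 0.20 over all libraries.

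Some markers of other cell types were also called between genotypes. Among all genes, 7.62% were called on the moderate diet, 31.2% on the enriched diet and 35.8% averaged over the diets. Of 7 erythroid genes none passed on the moderate diet and 1, Klf1, fell on the enriched diet, and their summed level ran from 1473 to 6359 CPM in WT and 703 to 3548 CPM in mutants. Of 6 endothelial genes 2 rose on the moderate diet and 2 rose and 2 fell on the enriched diet, with sums of 281 to 341 CPM in WT and 314 to 385 CPM in mutants. Sums of 6 cardiac genes had medians of 6.46 and 6.93 CPM in moderate and enriched diet WT and of 3.23 and 4.21 CPM in the mutants, and those of 6 yolk sac genes ran from 1.69 to 120.1 CPM, without a gene past the threshold on either diet. Averaged over the diets, the erythroid genes Klf1 (-1.50, adjusted p = 0.00244) and Gata1 (-1.14, adjusted p = 0.0107) and the cardiac gene Myh7 (-1.42, adjusted p = 0.00732) fell, the endothelial genes Flt1 (0.81), Pecam1 (0.56) and Kdr (0.18) rose and Emcn (-0.24) fell. In the same average the neural gene Sox2 (0.21) and the mesenchyme and crest genes Tfap2a (0.25) and Prrx2 (0.27) rose, and no yolk sac or decidua gene passed. Of 5 decidua and trophoblast genes 2 could be tested, Tpbpa was at 0 in 3 of the groups, and Prl8a2 rose on the enriched diet, where the list's sum reached 190.5 CPM in 1 mutant library against a median of 5.48 CPM in its group. The part of these cells in the members' levels was not tested.

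Other JmjC genes, a list that includes the inactive Jarid2, were called in both directions averaged over the diets. Of 16 other JmjC genes, 14 could be tested, and 1 rose and none fell on the moderate diet. On the enriched diet 3 rose and none fell, and averaged over the diets 3 rose and 2 fell. Among all genes 7.62%, 31.2% and 35.8% were called in these comparisons. The averaged median was -0.08, against -0.01 for all genes and 0.35 for the members. Members and lists were chosen with earlier results of these data known, so these medians cannot show that the members form a group of their own. Kdm7a, a demethylase of lysine 9 and lysine 27, rose from 63.2 ± 3.28 to 128 ± 35.9 CPM on the moderate diet (log2 fold change 1.02 ± 0.17, adjusted p = 0.00181) and from 61.1 ± 8.64 to 158 ± 25.1 CPM on the enriched diet (1.39 ± 0.18, adjusted p = 0.000131), a larger estimate than that of Kdm3a. Jarid2, an inactive JmjC protein of Polycomb complexes, rose averaged over the diets (0.52 ± 0.09, adjusted p = 0.000528), and Jmjd4 fell (-0.29 ± 0.08, adjusted p = 0.00839). The other two past the threshold in that average were Kdm5a, a paralog of Kdm5b, at 0.24 and Kdm8 at -0.19.

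The flavin-dependent demethylases, which need no 2-oxoglutarate, were Kdm1a at 0.03 ± 0.04 (adjusted p = 0.669) and Kdm1b, which fell averaged over the diets (-0.19 ± 0.06, adjusted p = 0.0233), while their corepressor partner Rcor2 rose (0.36 ± 0.07, adjusted p = 0.00145). Of 19 histone lysine methyltransferases, which write the marks that members erase, none rose and 2 fell averaged over the diets, Suv39h1 of lysine 9 (-0.15 ± 0.04, adjusted p = 0.0162) and Setd1b of lysine 4 (-0.39 ± 0.12, adjusted p = 0.0202). Ezh1, which writes on lysine 27, was at 0.19 ± 0.09 (adjusted p = 0.107), and it was the 1 gene of the list that rose on the enriched diet (0.38, adjusted p = 0.0274). Of 9 partners in Polycomb complexes 2 rose averaged over the diets: Pcgf1, which joins Kdm2b in its complex (0.59 ± 0.11, adjusted p = 0.000713), and Bcor of the same complex (0.25 ± 0.09, adjusted p = 0.0372), whereas Usp7 was at -0.09 ± 0.05 (adjusted p = 0.167). Of 13 enzymes of 2-oxoglutarate, succinate and fumarate, which supply the substrate of the members and handle products that inhibit them, 1 rose and 3 fell averaged over the diets. Ogdh, which consumes 2-oxoglutarate, fell (-0.40 ± 0.06, adjusted p = 6.34e-05), Idh1, its cytosolic producer, fell (-0.41 ± 0.07, adjusted p = 0.000416), and the mitochondrial Idh2 rose (0.32 ± 0.06, adjusted p = 0.00113). Sdhd, a subunit of succinate dehydrogenase, also fell (-0.21, adjusted p = 0.0452). Apart from the low oxygen genes, the median of each of these enzyme and partner lists lay between -0.08 and 0.09. In the same average 17.4% of all genes were called higher and 18.5% lower.

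**Figure D4:**
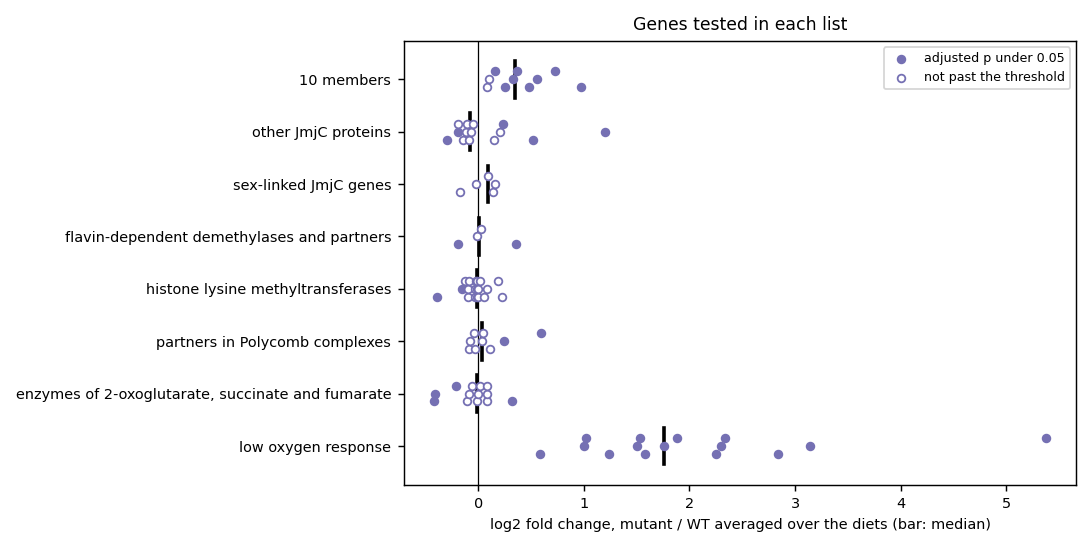
Log2 fold change between mutants and WT averaged over the diets for the tested genes of each list, with black bars at the median and filled points for an edgeR adjusted p under 0.05. The members' median of 0.35 lies between that of the low oxygen genes, 1.76, and those of the other lists. Members and lists were chosen with earlier results of these data known.

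Genes with the most similar profile were sought among 11873 genes with a mean of at least 1 CPM, leaving out members, predicted genes and genes annotated on the sex chromosomes, by the mean absolute difference of centred log2 CPM over 16 libraries. Nearest to Kdm3a were Ogdhl at 0.10, Khnyn at 0.10 and the copper pump Atp7b at 0.11. Kdm4c was nearest to Fnip1 at 0.06, Pvr at 0.07 and Spidr at 0.07, and Kdm4b to Sdr39u1 at 0.07, Impa2 at 0.08 and Aasdh at 0.09. Kdm5b was nearest to Gzf1, Ap3b1 and Zfp654 at 0.03 to 0.05, Kdm2b to Ccdc6, Usp6nl and Ube2o at 0.03 to 0.05, and Kdm2a to Arid2, Fam126b and Cblb at 0.05 each. Jmjd6 had Ppme1, Smyd2 and Irx5 at 0.06 to 0.07, and Kdm6b had Mast3, Kif21a and Trerf1 at 0.08 each. A small distance partly reflects a small spread of both genes, so distances are not comparable between members.

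No member passed the test for diet in either genotype. In WT heads 0 of 10 members passed between the enriched and moderate diets by edgeR, DESeq2 or limma-voom, with 1 (Kdm2a) at an unadjusted p under 0.05, a level reached by 2.44% of all genes. In mutants 0 of 10 passed by the same tools, with 1 (Kdm4c) at an unadjusted p under 0.05, a level reached by 10.8% of all genes. No gene of the whole table passed by edgeR or limma-voom either (0% called in both comparisons), while DESeq2 called 1 gene in WT and 3 in mutants. Because the same groups entered the genotype comparisons, these values are not independent of those above. Kdm2a was at -0.21 in WT (95% interval -0.40 to -0.02, adjusted p = 0.967) and Kdm4c at 0.34 in mutants (0.08 to 0.59, adjusted p = 0.442). Counting libraries alone, Kdm4a in enriched diet WT heads (129.6 to 141 CPM) lay wholly below moderate diet WT heads (146 to 151 CPM), at a log2 fold change of -0.13 (95% interval -0.28 to 0.02, adjusted p = 0.967). It was the 1 member of 10 to do so, as did 1.05% of all genes, and none lay wholly above (1.47% of all genes). In mutants no member was wholly above or below, against 1.46% and 1.74% of all genes. For Kdm3a the intervals of the diet difference were -0.36 to 0.29 in WT and -0.04 to 0.57 in mutants, and changes within those bounds are not excluded. Over the 10 members the intervals stayed between -0.48 and 0.33 in WT and between -0.16 and 0.59 in mutants.

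**Figure D5:**
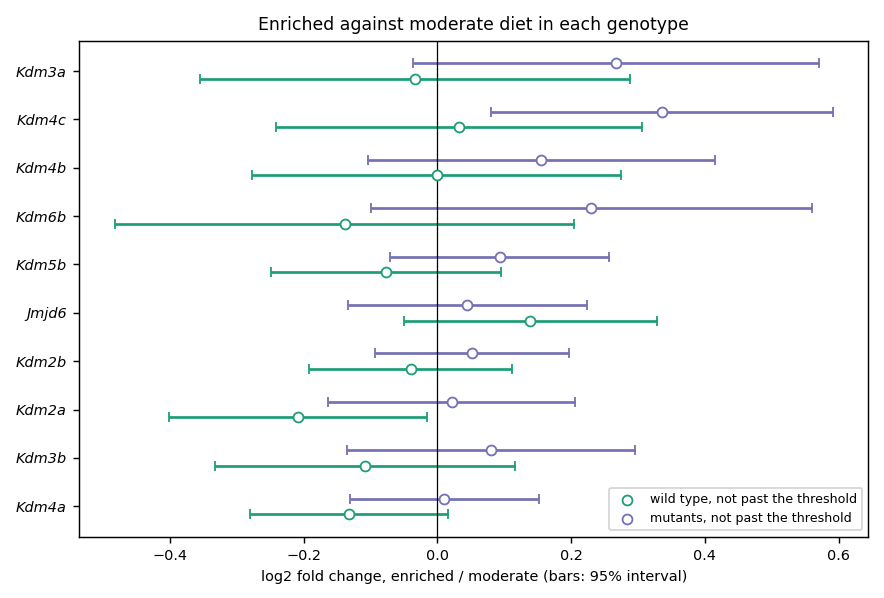
Log2 fold change of each member between the enriched and moderate diets in WT and in mutants, with 95% intervals. All points are open (adjusted p of 0.05 or more), and in both genotypes the interval of 9 members includes 0.

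The genotype effect was estimated larger on the enriched than on the moderate diet in 9 of the 10 members, but the difference between the effects passed in 0 of 10 by edgeR, DESeq2 or limma-voom (0% of all genes called by edgeR), and 0 had an unadjusted p under 0.05, against 9.65% of all genes. The largest estimates were 0.37 for Kdm6b, 0.30 for Kdm4c and 0.30 for Kdm3a, with edgeR adjusted p-values of 0.509 to 0.732 over the members. These estimates depended on moderate diet mutant replicate 3: without it they were 0.31 for Kdm6b, 0.20 for Kdm4c and 0.18 for Kdm3a, below the 0.24 of Kdm3b and of Kdm2a, and Kdm4b went from 0.16 to 0.04.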

How the data were processed

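RNA sequencing covered 16 libraries of embryonic heads. The authors used FastQC 0.11.5, TopHat2 2.1.1, SAMtools 1.8, HTSeq 0.9.1 and DESeq2 1.22.2 with build mm10, per the submitters' processing notes. Counting mode, strand option and annotation were not given in the sources used here. As values, the authors deposited unnormalized read counts for 24421 gene symbols. The summary lines of the counting tool were left out, with 13.7 to 17.0% of reads on no feature. Groups, replicate numbers and sex were taken from the labels. Replicates differed by more than sampling noise in every pair.

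The filter kept 14514 genes that reached 10 counts in 4 or more libraries. Counts were scaled by trimmed means of M values and fitted with edgeR 4.0.16 (R 4.3.3) as a quasi-likelihood model of all 16 libraries, with a coefficient per group and labelled sex as covariate. The p-values were adjusted by Benjamini-Hochberg over the genes kept, with a threshold of 0.05, and the SE is the log2 fold change divided by the root of F. The fit was tested on simulated data. Lengths and positions come from GENCODE vM21, which matched 23376 symbols. The genes named are all members, the 3 lowest p-values of each list averaged over the diets, and the 3 nearest genes of each member that passed. Older symbols of list genes were matched through RefSeq synonyms. Ratios of counts within a subfamily were added after the data were seen. The members and lists were chosen with earlier results of these data known, and some names outside the rule were chosen after their values were seen. Replicate numbers were not taken as pairs. Alternatives were median-of-ratios scaling, DESeq2 1.42.0, limma-voom (limma 3.58.1), no filter, other covariates, a replicate block, fewer libraries and an adjusted p of 0.1.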

Additional observations from a re-analysis of the deposited data

Results flagged for a closer look

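In 40 sets of 4 libraries, the 10 members in each group, 2 values stood far from the other 3 of their group by Dixon's criterion at 95%, and chance alone gives about 1 in 20. Kdm3a in moderate diet WT replicate 4 was the lowest of its group at 118 CPM, where the other 3 libraries lay within 123 to 124 CPM. Kdm5b in moderate diet WT replicate 1 was the highest of its group at 291 CPM, where the others lay at 277 to 279 CPM.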

How the results depend on the processing

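The count of members past the threshold depended on the libraries in the moderate diet comparison. It was 5 with all libraries, 3 with the libraries of the groups compared alone, 0 without the 3 libraries whose labelled sex differs from their counts, and 3 to 6 when each library was left out in turn. The lowest count came without mutant replicate 1, 2 or 4 or WT replicate 1, 2 or 3 of that diet, each time through the loss of Kdm4b and Kdm5b, and the share of all genes called ranged from 3.71 to 14.6%. Without the 3 libraries of contradicted sex that share was 0.726%, and Kdm3a kept a log2 fold change of 0.82 with an adjusted p of 0.107, Kdm4c of 0.59 (0.201) and Jmjd6 of 0.29 (0.409). That fit held only 2 mutants of that diet. The enriched diet count of 8 ranged from 6 to 9 and the averaged count of 8 from 7 to 9 when each library was left out. The averaged count was also 7 without the sex covariate, with sex read from counts and without the 3 libraries of contradicted sex. In each of these settings Kdm2a lost its averaged call. Kdm2a on the enriched diet lost its call without mutant replicate 4 or WT replicate 3, and Jmjd6 without mutant replicate 4. With DESeq2, 6 members passed on the moderate diet and 9 on the enriched diet. Counts of 0 for diet and for the difference between genotype effects stayed at 0 in every alternative. Replicate numbers were not taken as pairs: 8 of 24 same-numbered pairs deviated together at a correlation over 0.1. Replicate 4 of the enriched diet mutants correlated at 0.51 with that of enriched diet WT and at 0.32 with that of moderate diet mutants. The latter 2 correlated at 0.46, and their pairs with moderate diet WT replicate 4 lay at -0.17 to 0.11. Unlike-numbered pairs exceeded 0.1 as well. Enriched diet WT 1 and moderate diet mutant 2 reached 0.40, enriched diet WT 2 and moderate diet WT 1 reached 0.39, and enriched diet WT 4 and moderate diet mutant 1 reached 0.35. A correlation over 0.1 was thus not particular to same-numbered pairs. With the replicate block 5 and 8 members passed on the 2 diets, as without it, while the genes called went from 1106 to 1453 and from 4524 to 4979. No value past the threshold changed sign, but values near 0 did. On the moderate diet Kdm3b was at -0.00013 with sex read from counts and at -0.041 to 0.083 when each library was left out, and Kdm4a at -0.026 to 0.050. In the diet comparison of WT heads Kdm3a was at 0.036 without the sex covariate, at 0.00030 with sex read from counts and at -0.10 to 0.032 when each library was left out. Kdm4b there was at 0.0023 without a filter, 0.093 without the sex covariate, 0.045 with sex read from counts, 0.018 with the groups compared alone and -0.065 to 0.045 when each library was left out, and Kdm4c at -0.011 to 0.077. In mutants, without the libraries of contradicted sex, the diet values of Kdm2a, Kdm3b and Kdm4a were -0.036, -0.033 and -0.0066. When each library was left out they were -0.026 to 0.080 for Kdm2a and -0.012 to 0.089 for Kdm4a, and the log2 ratio of Kdm2b to Kdm2a on the enriched diet was -0.0025 to 0.084. The cause of these changes was not tested.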

Other observations

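Of 5 sex-linked JmjC genes outside the members, none passed the genotype test on either diet or averaged over both. Kdm5c, an X-linked relative of Kdm5b, held 327 ± 50.3 CPM (SD, n = 4) in moderate diet WT, 348 ± 55.4 in moderate diet mutants, 290.3 ± 58.6 in enriched diet WT and 319 ± 39.6 in enriched diet mutants. Kdm6a, the X-linked relative of Kdm6b, held 86.1 ± 19.1, 89.6 ± 16.1, 68.8 ± 18.6 and 83.4 ± 13.4 CPM in the same order. Averaged over the diets and with labelled sex as covariate, the genotype effect was 0.09 ± 0.09 for Kdm5c (edgeR adjusted p = 0.456) and 0.14 ± 0.11 for Kdm6a (adjusted p = 0.352). Phf8, a lysine 9 demethylase on the X chromosome, was at -0.02 ± 0.05 (adjusted p = 0.836). Counts contradicted the labelled sex in moderate diet mutant replicates 1 and 2 and moderate diet WT replicate 2. A sex difference could therefore remain in these estimates, and its part in them was not tested. The Y-linked Kdm5d and Uty were used to read the sex of a library. Their averaged genotype effects had SEs of 1.16 and 1.15, so their not passing does not show that they were unchanged.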
